A study of Mus musculus with 4 samples.

Results

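The COUP-TF genes Nr2f1, Nr2f2 and Nr2f6 encode the chicken ovalbumin upstream promoter transcription factors COUP-TFI, COUP-TFII and EAR2. They were taken by symbol, 3 of the 31054 features listed in every library, and are described here across the cells of mouse skin tumours. The family was chosen because Nr2f1 and Nr2f2 had been seen to differ between tumour cells of NP137-treated and control mice, so their values in that comparison are given as a description, with no test.

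COUP-TFs are orphan nuclear receptors, DNA-binding proteins with no established natural hormone, which bind direct repeats of a hormone response element and recruit co-repressors or co-activators. Nr2f2 keeps vein endothelium apart from artery endothelium, and works with Prox1 in lymphatic endothelium. Nr2f1 acts in neural crest and in the patterning of the cortex, and marks dormant disseminated cells in squamous carcinoma models. Nr2f6 is the most distant of these receptors and restrains cytokine genes in T cells.

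Droplet single-cell RNA-seq (10x Genomics, 3' ends) covered 2 NP137 and 2 control libraries, each from about 10000 live sorted cells of skin tumours. All mice had the same genotype, which included Lgr5CreER, p53fl/fl and Rosa26-YFP+/+, and all received 4 daily injections of 2.5 mg tamoxifen from postnatal day 28, which in Lgr5-expressing cells deletes p53 and switches on yellow fluorescent protein (YFP). The NP137 mice also received NP137, an antibody that blocks netrin-1, at 10 mg/kg every 2 days from week 4 after tamoxifen, and tumours were found at weeks 7 to 9. Whether each library came from its own animal is not stated. P-values that compare NP137 with control therefore reflect the spread among the 4 libraries, which may be technical. Those between cell classes, or between states of tumour cells, reflect how far such differences vary over the same libraries.

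The deposited matrices held 18146 and 17745 barcodes for NP137 1 and 2, and 12792 and 8328 for control 1 and 2, with 69517664 to 149021188 UMIs per library. After filters 44501 of 57011 barcodes were used. Any pair of libraries shared 24 to 86 barcodes, at most 0.578% of the smaller library. Tumour cells were cells with at least 1 UMI of YFP and 1 UMI of Cdkn2a, the tumour suppressor gene that p53-deficient cells express strongly, and fewer than 3 markers of any immune, endothelial, mural, Schwann or melanocyte class. They numbered 2844 and 712 in NP137 1 and 2, and 3543 and 1184 in control 1 and 2, with median depths of 9117, 18966, 9834 and 24056 UMIs per cell. Their 8 keratinocyte markers summed to 6775 and 7579 CPM, the UMI count scaled to the same total in every library, in NP137 libraries, against 1203 and 782 CPM in control libraries, while the 8 fibroblast markers summed to 421 and 249 CPM in NP137 libraries against 2127 and 1888 CPM in control libraries. Fibroblast and keratinocyte markers were not used to exclude cells from this gate, and stray UMIs were frequent: 8.40% and 2.06% of macrophages or monocytes in NP137 libraries, against 39.5% and 17.6% in control libraries, held a Cdkn2a UMI. The part of either in the results was not tested. NP137 2 stood apart in its 852 B cells, of which the other libraries held at most 1.

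All 3 genes lie on the minus strand of GRCm38, Nr2f1 (ENSMUSG00000069171) at chr13:78188973-78199757, Nr2f2 (ENSMUSG00000030551) at chr7:70351944-70366735 and Nr2f6 (ENSMUSG00000002393) at chr8:71374123-71381960. Promoter windows of 300 bases, around the RefSeq start, are shown for Nr2f1 and Nr2f2, the members that differed together in tumour cells (RefSeq, GRCm38.p6, minus strand, 5' to 3', with every CpG in capitals). The RefSeq start of Nr2f1 used here, base 78198873, lies inside the longer GENCODE gene, whose own start at 78199757 is outside the window, while the Nr2f2 window holds both starts.
Nr2f1, chr13:78198824-78199123: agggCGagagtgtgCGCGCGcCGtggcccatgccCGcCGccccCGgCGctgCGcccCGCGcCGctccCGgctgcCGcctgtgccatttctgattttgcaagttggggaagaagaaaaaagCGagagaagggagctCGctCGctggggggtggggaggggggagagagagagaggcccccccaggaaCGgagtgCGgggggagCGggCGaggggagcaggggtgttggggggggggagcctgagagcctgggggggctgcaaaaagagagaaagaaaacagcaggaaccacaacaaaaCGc
Nr2f2, chr7:70366697-70366996: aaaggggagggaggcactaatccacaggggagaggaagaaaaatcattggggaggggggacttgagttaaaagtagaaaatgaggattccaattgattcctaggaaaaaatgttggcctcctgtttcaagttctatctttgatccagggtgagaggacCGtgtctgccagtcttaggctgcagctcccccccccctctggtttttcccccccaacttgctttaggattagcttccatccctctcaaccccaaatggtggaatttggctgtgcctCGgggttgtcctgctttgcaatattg
The Nr2f1 window held 23 CpG at 68.0% GC, and 21.5% of 32851 RefSeq promoter windows held as many. The Nr2f2 window held 2 CpG at 49.7% GC, against a median of 7 CpG at 52.7% GC over all windows, and 85.9% of windows held as many. Neither window held AGGTCA, a single unit of the direct repeats that COUP-TFs bind, read on both strands and present in 16.3% of windows. Both also lacked CAGGTG, the E-box of Zeb and Snail factors, present in 20.2%. Variant spellings of these letters were not searched. The RefSeq windows of Nr2f6 and of a second Nr2f1 start held neither motif as well. These are matches of letters in these windows and show no binding.

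Nr2f1 was close to absent from NP137 tumour cells and abundant in control tumour cells. UMIs were summed over the tumour cells of a library and scaled to CPM with TMM factors. Nr2f1 stood at 0.691 and 1.28 CPM in NP137 1 and 2, against 97.4 and 87.3 CPM in control 1 and 2. These sums rest on 16 and 16 UMIs in NP137 cells, against 4119 and 2685 UMIs in control cells. The fitted log2 fold change was -6.60 with an SE of 0.44 (edgeR). Of 13978 genes fitted, 29 had a lower fold change. Control 1 and NP137 1, whose deposited files carry the same date, gave 0.691 CPM in NP137 1 against 97.4 CPM in control 1.

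Nr2f2 was also lower in NP137 tumour cells, with a smaller difference and a wide gap between the control libraries. Its level was 19.9 and 17.1 CPM in NP137 1 and 2, against 54.1 and 161 CPM in control 1 and 2. The log2 fold change was -2.56 (SE 0.57), and 723 of 13978 genes had a lower one. Without control 2 the log2 fold change was -1.55. Nr2f6 did not follow them: it stood at 78.1 and 46.2 CPM in NP137 cells against 73.1 and 46.5 CPM in control cells, with a log2 fold change of 0.03 (SE 0.36). In this comparison 1.17% of all genes passed edgeR's quasi-likelihood test at an adjusted p of 0.05, 0.479% as higher and 0.687% as lower. Because the genes were chosen on it, nothing is read from where the members stand.

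**Figure D1:**
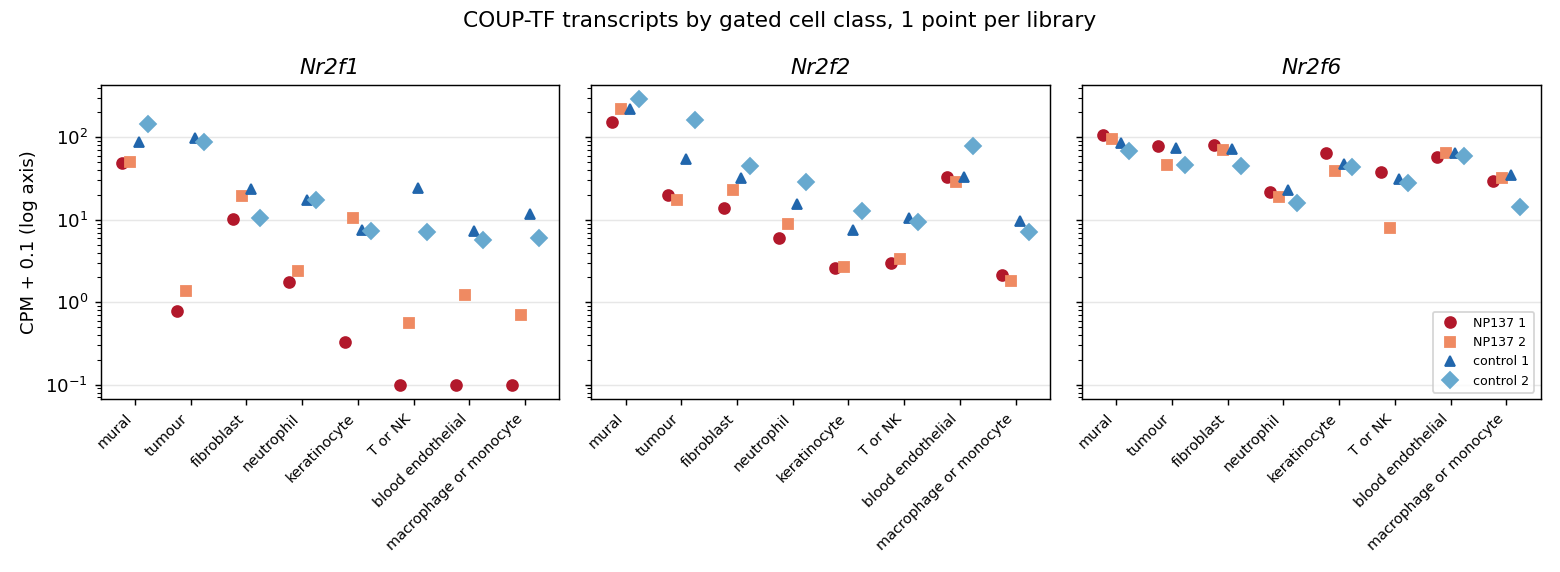
CPM plus 0.1 on a log axis (y) of Nr2f1, Nr2f2 and Nr2f6 in 8 gated cell classes (x), 1 point per library, with NP137 libraries in red tones left of control libraries in blue tones. In tumour cells Nr2f1 stood near 1 CPM in both NP137 libraries and at 97.4 and 87.3 CPM in control 1 and 2, while Nr2f6 points overlapped.

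At the single-cell level an Nr2f1 UMI was found in few NP137 tumour cells and in many control tumour cells. Epcam and Vim were read in the same cells. Epcam encodes an epithelial adhesion protein that is lost in the epithelial-mesenchymal transition, and Vim encodes vimentin, an intermediate filament of mesenchymal cells. To remove depth, each cell was thinned to 2000 UMIs. An Nr2f1 UMI was then seen in 4 of 2746 NP137 1 cells (0.146%, exact 95% interval 0.0397 to 0.373%) and in 1 of 709 NP137 2 cells (0.141%, 0.00357 to 0.783%). The control shares were 593 of 3423 cells (17.3%, 16.1 to 18.6%) in control 1 and 163 of 1109 cells (14.7%, 12.7 to 16.9%) in control 2. All intervals cover counting error only. Macrophages or monocytes, which serve as the background of free RNA, had shares of 0 of 448 cells (allowing up to 0.670%) and 0.0506% in NP137 1 and 2, against 1.41% and 0.735% in control 1 and 2. The tumour share of NP137 1 lies under the limit its macrophages allow, that of NP137 2 rests on 1 cell, and both control tumour shares lie above the macrophage shares of their libraries. Median depths before thinning were 9320 and 19029 UMIs in NP137 and 10136 and 25341 UMIs in control tumour cells, and 2750, 6079, 4200 and 9520 UMIs in the macrophages or monocytes of NP137 1, NP137 2, control 1 and control 2.

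At 2000 UMIs the control cells with an Nr2f1 UMI were almost all Epcam-Vim+, that is with a Vim UMI and no Epcam UMI. They made up 587 of 593 Nr2f1 cells in control 1 (99.0%), where 92.0% of all tumour cells were Epcam-Vim+. In control 2 they made up 160 of 163 Nr2f1 cells (98.2%), where 90.3% of all tumour cells were. The other 6 Nr2f1 cells of control 1 were Epcam+Vim+, and of those of control 2, 1 was Epcam+Vim+ and 2 held neither marker. No Nr2f1 cell was Epcam+Vim- in any library at this depth, among 909, 370, 80 and 45 such cells in NP137 1, NP137 2, control 1 and control 2, which allows shares of up to 0.330%, 0.811%, 3.75% and 6.67%. Without thinning, where more cells show an Epcam UMI, the Epcam-Vim+ share of the Nr2f1 cells was 93.7% in control 1 and 78.8% in control 2, where 87.5% and 74.9% of all tumour cells were Epcam-Vim+. An Nr2f1 UMI was then found in 111 of 414 Epcam+Vim+ cells of control 1 (26.8%), against 1665 of 3100 Epcam-Vim+ cells (53.7%). In control 2 it was found in 153 of 249 Epcam+Vim+ cells (61.4%), against 579 of 887 Epcam-Vim+ cells (65.3%). How seldom Nr2f1 is seen with Epcam thus depends on the depth, and in control 2 unthinned Epcam+Vim+ cells held it nearly as often.

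For Nr2f2 cells the same shares were read, with no test of a difference between the genes. In control tumours 93.8% and 94.7% of the Nr2f2 cells were Epcam-Vim+, close to the 92.0% and 90.3% of all tumour cells. In NP137 1, 51.7% of 89 Nr2f2 cells were Epcam-Vim+ where 28.6% of tumour cells were, and in NP137 2, 4.55% of 22 Nr2f2 cells where 8.74% of tumour cells were. The NP137 2 share rests on 1 cell, and without thinning it was 9 of 147 Nr2f2 cells (6.12%), where 4.92% of all tumour cells were Epcam-Vim+. The share of all tumour cells with an Nr2f2 UMI was 3.24% (2.61 to 3.97%) and 3.1% (1.96 to 4.66%) in NP137 1 and 2, against 9.47% (8.51 to 10.5%) and 25.5% (23.0 to 28.2%) in control 1 and 2. The difference between the control libraries is beyond their intervals.

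No NP137 tumour cell held UMIs of both genes at this depth. Without thinning both were found in 6 of 2844 and 2 of 712 cells of NP137 1 and 2 (0.211% and 0.281%), against 822 of 3543 and 689 of 1184 cells of control 1 and 2 (23.2% and 58.2%). At 2000 UMIs both were found in 65 control 1 cells (1.90%, against 1.64% from the product of the single shares) and in 62 control 2 cells (5.59%, against a product of 3.75%). Before thinning single cells reached 2 and 3 Nr2f1 UMIs in NP137 1 and 2, against 18 and 23 in control 1 and 2.

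**Figure D2:**
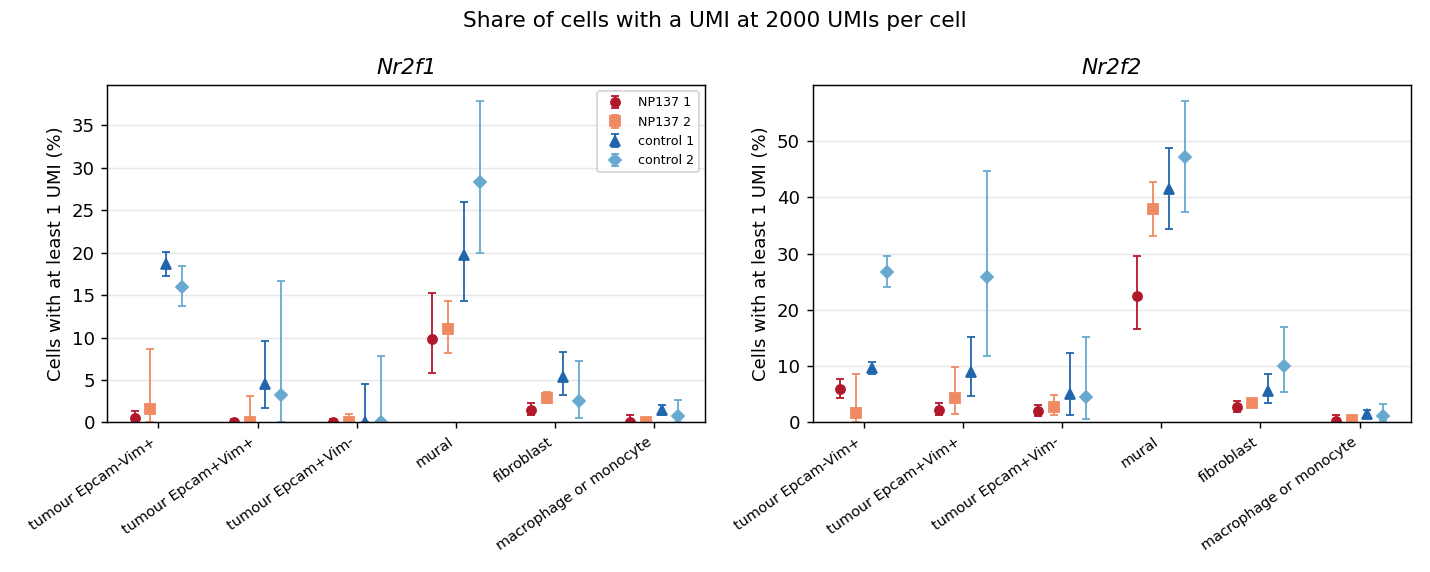
Percent of cells with at least 1 UMI of Nr2f1 (left) or Nr2f2 (right) after thinning each cell to 2000 UMIs (y), in tumour cells split by Epcam and Vim and in mural cells, fibroblasts and macrophages or monocytes (x), 1 point per library with exact 95% binomial intervals, which cover counting error only. Nr2f1 stood at 0.509% and 1.61% in Epcam-Vim+ cells of NP137 1 and 2, against 18.6% and 16.0% in those of control 1 and 2.

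The lower Nr2f1 of NP137 tumours was also seen among Epcam-Vim+ cells alone. In Epcam-Vim+ cells Nr2f1 stood at 1.83 and 9.58 CPM in NP137 1 and 2 (786 and 62 cells, 14 and 11 UMIs), against 108 and 91.2 CPM in control 1 and 2 (3150 and 1001 cells, 4061 and 2610 UMIs). Nr2f2 in the same cells stood at 35.7 and 12.2 CPM in NP137 1 and 2, against 56.6 and 168 CPM in control 1 and 2. Both genes lay lower in both NP137 libraries, and how many of all genes do so was not counted. The Epcam-Vim+ cells were not alike between groups: their keratinocyte markers summed to 4124 and 4037 CPM in NP137 cells, against 583 and 285 CPM in control cells, and their fibroblast markers to 875 and 1794 CPM in NP137 cells against 2294 and 1998 CPM in control cells. The part of that difference in the Nr2f1 level was not tested. With 2 YFP and 2 Cdkn2a UMIs required, 24 Epcam-Vim+ cells of NP137 2 remained, with 0 Nr2f1 UMIs and a keratinocyte sum of 7698 CPM, while NP137 1 held 14 Nr2f1 UMIs in 676 cells.

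In Epcam+Vim+ cells, which carry both markers, Nr2f1 had 0 UMIs in 819 and 116 cells of NP137 1 and 2, against 46 and 31 UMIs in 133 and 31 cells of control 1 and 2, or 21.2 and 45.1 CPM. At these depths 0 UMIs allow up to 0.371 and 1.36 CPM. Without thinning, and without TMM factors, Nr2f1 had 1 and 5 UMIs in 1565 and 483 Epcam+Vim+ cells of NP137 1 and 2 (0.0609 and 0.483 CPM), against 266 and 569 UMIs in 414 and 249 cells of control 1 and 2 (42.6 and 87.5 CPM). On that scale the Epcam-Vim+ cells of control 1 and 2 stood at 107 and 95.0 CPM, so the 2 states lay close in control 2. In Epcam+Vim- cells Nr2f1 had 1 and 4 UMIs in NP137 1 and 2 and 1 UMI in each control library. The level of Nr2f1 in Epcam+Vim- cells was thus near 1 CPM or below in all 4 libraries. Cells with neither marker held 0 and 1 Nr2f1 UMIs in 232 and 161 cells of NP137 1 and 2. In control 1 and 2 such cells held 5 and 38 UMIs in 60 and 32 cells, or 5.78 and 53.3 CPM.

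**Figure D3:**
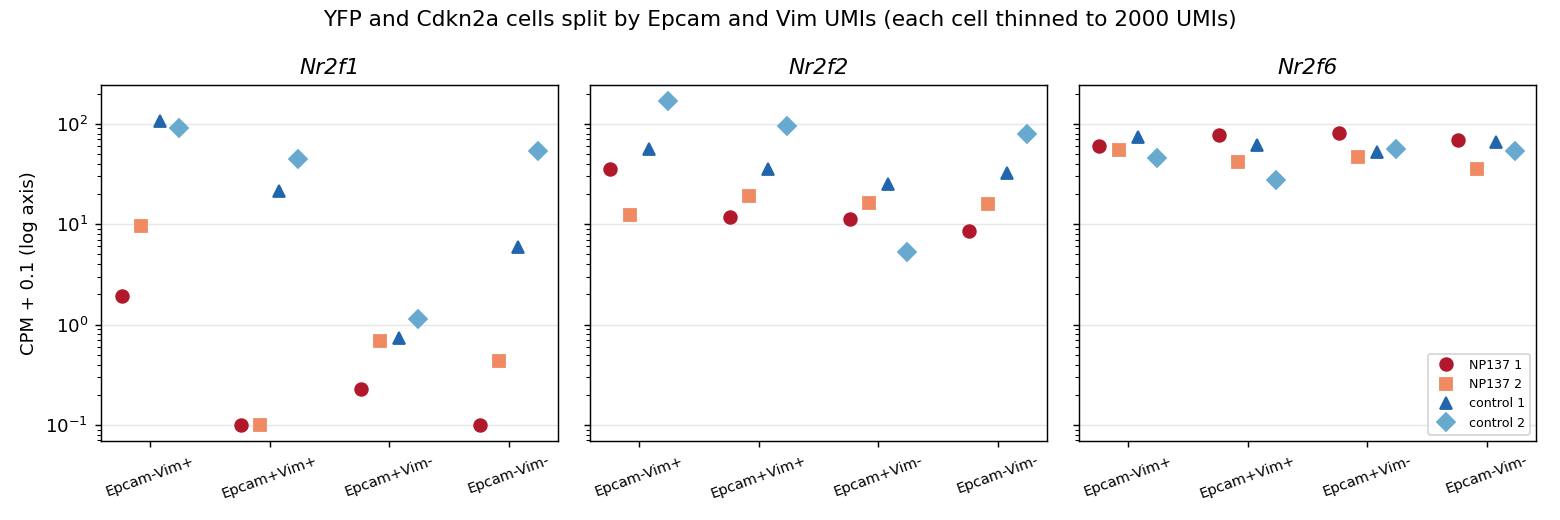
CPM plus 0.1 on a log axis (y) of the 3 genes in tumour cells split by Epcam and Vim UMIs (x), 1 point per library, NP137 libraries left of control libraries. Nr2f1 stood at 1.83 and 9.58 CPM in the Epcam-Vim+ cells of NP137 1 and 2, against 108 and 91.2 CPM in those of control 1 and 2, and at about 1 CPM or less in Epcam+Vim- cells of every library.

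The difference between both states was tested within libraries, with the library as a block, so that NP137 and control libraries each compare with themselves. The genes had been picked with related values in view, so this test is no independent support. Nr2f1 was higher in Epcam-Vim+ than in Epcam+Vim- cells by 5.42 on the log2 scale (SE 0.85, edgeR adjusted p = 0.00466). Of all 11586 genes tested 18.8% passed this test in either direction. The ratio of CPM per library, without TMM factors, was 16.2 in NP137 1 (exact 95% counting interval 2.47 to 686) and 19.3 in NP137 2 (5.71 to 82.9), against 146 in control 1 (26.2 to 5771) and 93.7 in control 2 (16.8 to 3703). The ratio was above 1 in all 4 libraries under the 1-UMI gate. With 2 YFP and 2 Cdkn2a UMIs required, NP137 2 held 0 Nr2f1 UMIs in Epcam-Vim+ cells, against 4 in Epcam+Vim- cells. Fibroblast markers moved with this comparison: they summed to 875 and 1794 CPM in Epcam-Vim+ cells of NP137 1 and 2 and to 2294 and 1998 CPM in those of control 1 and 2, against 191, 104, 199 and 121 CPM in Epcam+Vim- cells of the same libraries. With the stricter gate they were 187 CPM in Epcam-Vim+ cells of NP137 2 against 105 CPM in its Epcam+Vim- cells. Their part in the result was not tested. The call was lost with no thinning (4.88, adjusted p = 0.0831), in the NP137 libraries alone (4.07, adjusted p = 0.0526) and without control 1 (4.72, adjusted p = 0.0740).

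Nr2f2 had a log2 difference of 1.59 (SE 0.60), which did not pass (edgeR adjusted p = 0.0972), while DESeq2 called it (1.57, adjusted p = 0.0408). Its ratio was 3.68 in NP137 1 (exact 95% counting interval 2.88 to 4.74) and 0.891 in NP137 2 (0.472 to 1.56), against 1.92 in control 1 (1.41 to 2.70) and 34.6 in control 2 (14.8 to 107). The NP137 2 interval spans 1, and without thinning that library had 19.0 CPM in Epcam-Vim+ cells against 13.1 CPM in Epcam+Vim- cells. Nr2f6 gave 0.01 (SE 0.19, edgeR adjusted p = 0.975), with ratios between 0.856 and 1.39.

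The transcript A830082K12Rik starts inside the Nr2f1 gene, on the plus strand (chr13:78198017-78279391 in the GENCODE annotation). It overlaps the first part of Nr2f1, which begins at base 78199757, while the 3' end of Nr2f1 lies at base 78188973. The strand setting of the counting is not given, and whether the pair shares reads was not tested. The level of A830082K12Rik in tumour cells was 0.173 and 0.24 CPM in NP137 1 and 2, against 14.4 and 18.5 CPM in control 1 and 2. It was higher in Epcam-Vim+ cells by 4.47 (SE 0.89, edgeR adjusted p = 0.00957). The neighbours Gm38604 and Gm29683 stood below 1.2 CPM in tumour cells of every library. Ocel1, beside Nr2f6, stood at 36.5 and 27.4 CPM in NP137 cells against 37.4 and 13.4 CPM in control cells, and Ushbp1, its other neighbour, stayed below 1 CPM.

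Outside the tumour cells, mural cells, the pericytes and smooth muscle of vessel walls, had the highest median level of all 3 genes among the 8 classes tested. Nr2f1 stood at 48.6 and 50.8 CPM in mural cells of NP137 1 and 2, against 88.6 and 146 CPM in control 1 and 2. Nr2f2 stood at 151 and 218 CPM in mural cells of NP137 1 and 2, against 219 and 289 CPM in control 1 and 2. All 3 genes were tested against macrophages or monocytes in 1 fit of all non-tumour classes, with the library as a block and 11818 genes. In mural cells all 3 genes passed, where 49.1% of genes did, 23.9% as higher and 25.2% as lower: Nr2f2 by 5.68 (SE 0.31, edgeR adjusted p = 3.75e-14), Nr2f1 by 4.65 (SE 0.57, edgeR adjusted p = 2.87e-07) and Nr2f6 by 1.77 (SE 0.24, edgeR adjusted p = 5.11e-07).

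Single mural cells held both transcripts in 2.89% and 4.76% of NP137 1 and 2 cells, against 9.33% and 9.43% of control 1 and 2 cells, at 2000 UMIs. The shares with an Nr2f2 UMI were 22.5% and 37.9% in NP137 mural cells, against 41.5% and 47.2% in control mural cells. The shares with an Nr2f1 UMI were 9.83% and 10.95% in NP137 mural cells, against 19.7% and 28.3% in control mural cells. The marker sums of these classes also differed between the groups. In mural cells the mural markers summed to 9062 and 6811 CPM in NP137 1 and 2, against 9689 and 12422 CPM in control 1 and 2, and the fibroblast markers to 612 and 694 CPM in NP137, against 836 and 1364 CPM in control. Their part in the Nr2f1 and Nr2f2 levels was not tested. Per 100 Cdkn2a UMIs there were 72.9 and 278 Nr2f1 UMIs in NP137 mural cells and 54.5 and 575 in control mural cells. In tumour cells there were 0.0851 and 0.324 in NP137 and 7.03 and 8.44 in control. Blood endothelium had 0 and 22.2 in NP137 and 4.67 and 26.5 in control, from 0 and 2 Nr2f1 UMIs in NP137 and 10 and 13 in control. The mural ratios rest on 59 and 67 Cdkn2a UMIs in NP137 1 and 2, and on 213 and 32 in control 1 and 2. Those of blood endothelium rest on 30 and 9 in NP137 1 and 2, and on 214 and 49 in control 1 and 2. The tumour gate requires a Cdkn2a UMI in every cell, which lowers the ratio there, so it cannot compare tumour cells with other classes.

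Nr2f2 was also found in cells that line vessels. Lymphatic endothelial cells were few, 27, 15, 33 and 8 in NP137 1, NP137 2, control 1 and control 2, yet held 24, 48, 67 and 26 Nr2f2 UMIs, or 307, 348, 457 and 402 CPM without TMM factors. They were too few for a test, and the same cells held at most 4 Nr2f1 UMIs per library. In blood endothelium Nr2f2 stood at 32.9 and 28.8 CPM in NP137 1 and 2, against 32.7 and 78.0 CPM in control 1 and 2, and was higher than in macrophages or monocytes by 3.21 (SE 0.30, edgeR adjusted p = 1.15e-09, where 47.5% of genes passed, 22.4% as higher and 25.1% as lower). Nr2f1 did not differ detectably there (-0.12, SE 0.77, edgeR adjusted p = 0.921).

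Fibroblasts held intermediate levels. Nr2f1 stood at 10.2 and 19.5 CPM in NP137 fibroblasts, against 23.2 and 10.4 CPM in control fibroblasts, and Nr2f2 at 13.9 and 22.7 CPM in NP137 fibroblasts against 32.2 and 45.3 CPM in control ones. All 3 genes were higher than in macrophages or monocytes, where 55.5% of genes passed: Nr2f2 by 2.59 (edgeR adjusted p = 2.26e-08), Nr2f1 by 2.53 (edgeR adjusted p = 0.000541) and Nr2f6 by 1.33 (edgeR adjusted p = 2.15e-05). In neutrophils Nr2f2 was higher by 1.55 (edgeR adjusted p = 0.000425, where 56.7% passed), from 7 to 34 UMIs per library. Without TMM factors it stood there at 3.97 and 4.97 CPM in NP137 1 and 2, against 11.7 and 23.8 CPM in control 1 and 2. On that scale its mean over the libraries was 21.9 CPM with no doublets removed. In keratinocytes without YFP and Cdkn2a, Nr2f6 alone of the 3 passed (0.86, edgeR adjusted p = 0.00521, where 50.2% did). In T or NK cells, where Nr2f6 is best known, it did not pass (-0.27, SE 0.32, edgeR adjusted p = 0.549, where 36.6% did).

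By median level the order for Nr2f1 was mural, tumour, fibroblast, neutrophil, keratinocyte, T or NK, blood endothelial, then macrophage or monocyte. For Nr2f2 it was mural, tumour, blood endothelial, fibroblast, neutrophil, T or NK, keratinocyte, then macrophage or monocyte. Every pair of neighbours in both orders overlapped in range. The median of tumour cells spans unlike groups. For Nr2f6 the order was mural, fibroblast, blood endothelial, tumour, keratinocyte, macrophage or monocyte, T or NK, then neutrophil, and of its neighbours the keratinocyte range of 38.7 to 63.9 CPM alone did not overlap the next, 14.2 to 34.7 CPM.

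NP137 was compared with control within each non-tumour class, cells that the choice of genes did not use. Of 18 tests of a member in 7 classes none passed at an adjusted p of 0.05, the lowest being 0.565 (edgeR). edgeR gave 7 of them an unadjusted p under 0.05, all with a log2 fold change below 0. Of all genes, 370 of 8732 had such a p in mural cells, 442 of 11389 in macrophages or monocytes and 345 of 8462 in neutrophils. In fibroblasts 765 of 11185 had it, in keratinocytes 615 of 10242, in blood endothelium 714 of 9119 and in T or NK cells 267 of 4617. Their direction was not counted. DESeq2 passed none of the member tests it gave an adjusted p. With no count filter edgeR passed Nr2f1 in 3 classes (mural cells, macrophages or monocytes, neutrophils) and Nr2f2 in fibroblasts. The number of all genes passing with no count filter is not given here. In mural cells Nr2f1 had a log2 fold change of -1.23 (SE 0.28, edgeR adjusted p = 0.925). In fibroblasts Nr2f2 gave -1.24 (SE 0.32, edgeR adjusted p = 0.651). The fibroblast markers of these cells summed to 5669 and 6474 CPM in NP137 1 and 2, against 9120 and 8331 CPM in control 1 and 2. The part of that difference was not tested. In keratinocytes Nr2f2 gave -2.13 (SE 0.68, edgeR adjusted p = 0.581). It rests on 11 and 1 UMIs in 1648 and 64 cells of NP137 1 and 2, against 3 and 103 UMIs in 108 and 1112 cells of control 1 and 2. At 2000 UMIs Vim was seen in 21.0% and 23.1% of NP137 keratinocytes, against 64.2% and 27.8% of control ones. The part of that difference in the Nr2f2 level was not tested. In these classes few genes passed at all: 0% in blood endothelium, fibroblasts, macrophages or monocytes, mural cells and neutrophils by edgeR (345 to 765 genes at an unadjusted p under 0.05, and 0 to 34 genes by DESeq2), 0.107% in keratinocytes (0.0781% as higher and 0.0293% as lower) and 0.0217% in T or NK cells.

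In immune cells Nr2f1 did not pass either. In macrophages or monocytes it stood at 0 and 0.598 CPM in NP137 1 and 2, against 11.6 and 5.91 CPM in control 1 and 2 (log2 fold change -4.14, edgeR adjusted p = 0.974), and in neutrophils at 1.67 and 2.32 CPM in NP137 1 and 2 against 17.2 and 17.4 CPM in control 1 and 2 (-3.19, edgeR adjusted p = 0.565). Cdkn2a, the tumour gate gene, had 35.5 and 3.68 CPM in NP137 macrophages or monocytes against 134 and 18.3 CPM in control ones. In control 1, Nr2f1 made up 7.42 UMIs per 100 Cdkn2a UMIs in macrophages or monocytes and 7.03 in tumour cells. In control 2 the same ratio was 28.8 in macrophages or monocytes and 8.44 in tumour cells, from 15 Nr2f1 UMIs. The tumour gate, which requires a Cdkn2a UMI in every cell, lowers the tumour ratio. The part of free RNA in these immune values was not tested. The difference of the NP137 effect between fibroblasts and blood endothelium did not pass for any member (Nr2f1 2.82, SE 1.13, edgeR adjusted p = 1, with 0% of 10843 genes called and 225 at an unadjusted p under 0.05).

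Over 36 sums of a class and a library, which share libraries and depth, log2(CPM + 1) of the pair had a Pearson r of 0.76, and Nr2f6 had 0.50 with Nr2f1 and 0.64 with Nr2f2. The tumour sums among them had been used to choose the genes. Over the 32 sums without tumour cells, a selection made after seeing the data, r was 0.76 for Nr2f1 and Nr2f2, 0.54 for Nr2f1 and Nr2f6 and 0.64 for Nr2f2 and Nr2f6. Of 10672 genes, those most like Nr2f1 were Cp (0.83), which encodes the copper oxidase ceruloplasmin, Pcdh19 (0.82), a protocadherin, Mgp (0.82), an inhibitor of calcification, Arhgef17 (0.81) and Pcdh18 (0.80). Pcdh19 led for Nr2f2 (0.89), followed by Sparcl1 (0.88), Nexn (0.86), Ehd2 (0.86) and Chn1 (0.86). For Nr2f6 they were Lmbr1 (0.85), Robo1 (0.82), Cyb5r3 (0.82), Tpm1 (0.82) and Wtip (0.82). The tumour sums entered this ranking, so the tumour values of genes it picked are a description only. Pcdh19 had 8.76 and 3.12 CPM in NP137 tumour cells, against 140 and 139 CPM in control tumour cells. Cp had 21.0 and 6.89 CPM in NP137 tumour cells, against 247 and 115 CPM in control tumour cells.

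Among the other nuclear receptors, the receptors of retinoids, steroids and thyroid hormone included, 26 of 45 genes could be tested in tumour cells. None passed in either direction between NP137 and control by edgeR, where 1.17% of all genes did. At an unadjusted p under 0.05 there were 16 of the 26, against 3261 of all 13978 genes. DESeq2 called 3 higher and 9 lower of the 26, against 959 and 1160 of all 13978 genes. The median log2 fold change of the 26 receptors was -1.01, against -0.04 for all genes. Of these receptors 17 of 26 lay below 0, against 51.7% of all genes. Rorb was the lowest of them, at -6.34 (SE 1.01, edgeR adjusted p = 0.0582). Ppard, a lipid sensor, had 59.6 and 115 CPM in NP137 cells against 36.1 and 17.8 CPM in control cells (1.69, SE 0.51, edgeR adjusted p = 0.142).

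**Figure D4:**
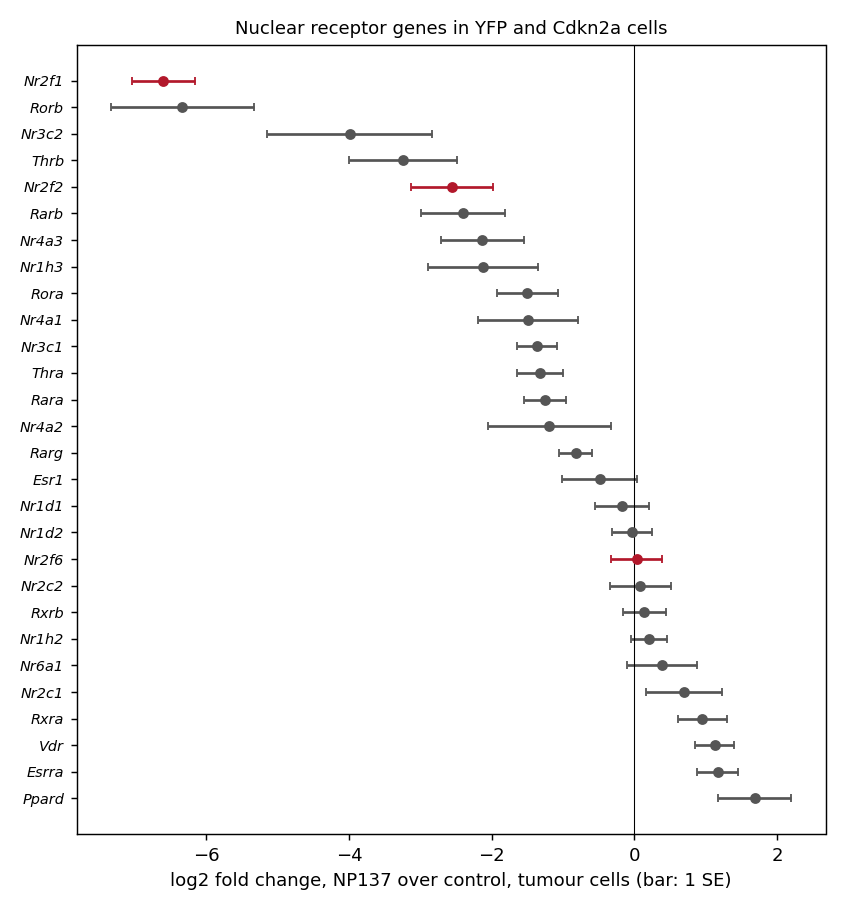
Log2 fold change of NP137 over control in tumour cells (x, bar 1 SE) for nuclear receptor genes tested (y), COUP-TF genes in red. Of the genes shown Nr2f1 had the lowest value, -6.60, with Rorb next at -6.34, and Nr2f6 lay at 0.03.

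In the comparison of Epcam-Vim+ with Epcam+Vim- cells 6 of 23 other nuclear receptors passed as higher and 3 as lower, against 10.7% and 8.1% of all genes. Nr4a2 was higher by 1.39 (edgeR adjusted p = 0.00441) and Thra by 1.12 (edgeR adjusted p = 0.00297). Ppard was lower by 1.15 (log2 -1.15, edgeR adjusted p = 0.0123).

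Of the retinoid handling genes 4 of 12 were higher and 2 lower in Epcam-Vim+ cells, against 10.7% and 8.1% of all genes. Crabp1, a retinoic acid binding protein, was higher by 5.86 (edgeR adjusted p = 0.00326). Its level in all tumour cells was 117 and 26.8 CPM in NP137 libraries, against 1208 and 871 CPM in control libraries. Rdh10, which makes retinal, was higher by 0.95 (edgeR adjusted p = 0.00921), and Stra6, the retinol importer, was lower (-2.17, edgeR adjusted p = 0.0342). None of the 14 testable retinoid genes passed between NP137 and control tumour cells by edgeR (6 at an unadjusted p under 0.05, 1 by DESeq2). Of all 13978 genes 3261 had such a p, and DESeq2 called 959 higher and 1160 lower.

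Of the known COUP-TF cofactors all 16 could be tested, and 1 was higher and 1 lower in Epcam-Vim+ cells, against 10.7% and 8.1% of all genes, so both shares lay below those of all genes. Zfpm2, which encodes the FOG2 partner of Nr2f2, was higher by 4.39 (edgeR adjusted p = 0.00637), with 1.18 and 8.71 CPM in NP137 Epcam-Vim+ cells against 20.6 and 1.61 CPM in control ones. Bcl11a, a zinc finger partner first found through COUP-TF, was lower (-2.72, edgeR adjusted p = 0.00477), with 13.3 and 32.0 CPM in NP137 tumour cells against 2.77 and 3.97 CPM in control ones. The co-repressor Ncor1 did not pass (0.12, edgeR adjusted p = 0.430), at 122 and 124 CPM in NP137 tumour cells against 143 and 137 CPM in control ones. None of the cofactors passed between NP137 and control by edgeR (5 at an unadjusted p under 0.05, 3 by DESeq2). Such a p was found for 3261 of all 13978 genes, of which DESeq2 called 959 higher and 1160 lower.

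Of the vessel identity genes 4 of 10 were higher and 1 lower in Epcam-Vim+ cells, against 10.7% and 8.1% of all genes. Angpt1, a vessel-stabilising ligand, was higher by 6.26 (edgeR adjusted p = 0.00160) and Nrp1, a co-receptor of vascular growth factors that Nr2f2 is known to repress in veins, by 3.23 (edgeR adjusted p = 0.0217), while Notch1 was lower (-1.35, edgeR adjusted p = 0.00920). Of the dormancy genes 4 of 12 were higher and 3 lower, against the same shares of all genes. Tgfb2 was higher by 3.39 (edgeR adjusted p = 0.00972) and Bmp4 by 4.17 (edgeR adjusted p = 0.00507), while Bmp7 (-2.85, edgeR adjusted p = 0.0220) and Sox9 (-0.80, edgeR adjusted p = 0.0407) were lower. Sox9 stands in the neural crest list as well, and both lists had members in both directions. Between NP137 and control tumour cells none of 12 vessel genes and none of 12 dormancy genes passed by edgeR (6 and 5 at an unadjusted p under 0.05), while DESeq2 called 3 and 5. Over all 13978 genes 3261 had such a p, and DESeq2 called 959 higher and 1160 lower.

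Of the neural crest genes 1 of 9 was higher and 3 lower in Epcam-Vim+ cells, against 10.7% and 8.1% of all genes, so the share of higher genes was near that of all genes. Snai1, the Snail repressor of cadherin genes, was higher by 3.85 (edgeR adjusted p = 0.000809), and Snai2 and Tfap2a were lower (-1.35 and -0.82, edgeR adjusted p = 0.0212 and 0.0126). Between NP137 and control tumour cells 2 of 10 neural crest genes passed, where 1.17% of all genes did. Snai1 fell to 4.06 and 4.25 CPM in NP137 cells, against 47.2 and 40.2 CPM in control cells (-3.41, SE 0.30, edgeR adjusted p = 0.0467). Tfap2c rose to 30.0 and 26.6 CPM in NP137 cells, against 4.26 and 3.41 CPM in control cells (2.86, SE 0.32, edgeR adjusted p = 0.0467). DESeq2 also called 1 gene of the list in each direction, where it called 959 higher and 1160 lower of all 13978 genes. edgeR called no gene at all without control 1, without control 2, without NP137 2, with no doublets removed, with the replicate block or with any of the 3 other tumour gates.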

How the data were processed

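The matrices deposited by the authors give UMI counts for 31053 Ensembl genes and a YFP feature in each barcode. They came from 10x software 3.0.2, per the file headers, and Seurat 3.1.5 is named in the submitters' processing notes. How cells were called and whether strand was used is not stated in the labels or headers.

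Barcodes were kept from 200 genes upwards with mitochondrial UMIs below 20%. Doublets were scored with Scrublet and the top 0.8% per 1000 barcodes of each library removed (2412, 2401, 1195 and 378 cells in NP137 1, NP137 2, control 1 and control 2). A cell was given a class where at least 3 of its markers were detected and led the next class by 2, and keratinocytes and fibroblasts also had no YFP or Cdkn2a UMI. No clustering was used. Classes with at least 50 cells in every library were tested. Epcam/Vim states entered their fit with at least 20 cells, and Epcam-Vim- cells were left out of it.

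Counts were summed per library and class and compared with edgeR's quasi-likelihood test (TMM, filterByExpr, robust), Benjamini-Hochberg over all genes at 0.05, 2-sided. Shares have exact (Clopper-Pearson) 95% intervals and a count of 0 a limit of 3 counts. In T or NK cells Nr2f1 and Nr2f2, and in blood endothelium Nr2f1, fell under the count filter between NP137 and control. The scripts were tested on simulated data with known changes.

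The genes, lists and tests were chosen with earlier results of these data known. Named genes were the members, up to 6 genes of each list with at least 20 CPM in tumour cells by level, up to 3 of smallest p that passed, the neighbours, and the 5 genes most like each member among those with at least 5 CPM; Rorb was named after its value was seen. Some items that the design or this rule would name are not reported here. Alternatives were DESeq2, its size factors, no count filter, each library left out, a replicate block by sample number, limits of 500 genes and 10% on mitochondrial UMIs, doublets kept, other tumour gates, and thinning to 1000 UMIs or none; 2 choices, no limit on other class markers and NP137 or control libraries alone, were added after seeing the data. Tools were R 4.3.3 (DESeq2 1.42.0, edgeR 4.0.16, limma 3.58.1) and Python 3.11.15 (matplotlib 3.10.9, scanpy 1.11.5, scipy 1.17.1, numpy 2.4.6, pandas 2.3.3).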

Additional observations from a re-analysis of the deposited data

How the results depend on the processing

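In tumour cells the log2 fold change of Nr2f1 between NP137 and control stayed between -7.11 and -6.17 with a library left out, and was -5.80 with no doublets removed, -5.97 with YFP alone as the gate, -7.25 with 2 YFP and 2 Cdkn2a UMIs and -5.96 with no limit on other class markers. That of Nr2f2 lay between -3.13 and -1.55 with a library left out. The number of genes called there, 163, was 2119 by DESeq2 and 1265 with no count filter, and 0 with no doublets removed, with YFP alone, with 2 YFP and 2 Cdkn2a UMIs and with no limit on other class markers. With a library left out it lay between 0 and 135.

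The sample numbers are shared between groups, but the labels do not say that they pair samples. Deviations of same-numbered libraries correlated between -0.0305 and 0.197 over the classes. With the number as a replicate block the count in tumour cells was 0, the log2 fold change of Nr2f1 was -6.63 and no member passed in another class.

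With no count filter Nr2f2 passed in fibroblasts (-1.16, edgeR adjusted p = 0.0269) and Nr2f1 in mural cells (-1.22, edgeR adjusted p = 0.0105), macrophages or monocytes (-4.10, edgeR adjusted p = 0.000562) and neutrophils (-3.08, edgeR adjusted p = 0.0295). How many of all genes passed in these classes at that setting is not given here. Without control 1 Nr2f2 in keratinocytes passed against macrophages or monocytes (1.02), with a range of -0.055 to 1.02 with a library left out.

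Between Epcam-Vim+ and Epcam+Vim- cells the log2 fold change of Nr2f1 lay between 4.72 and 6.28 with a library left out, and was 4.88 with no thinning and 4.07 in NP137 libraries alone, no longer past the threshold. Nr2f2 passed by DESeq2 (1.57). The number of genes called, 2177, was 1047 with 2 YFP and 2 Cdkn2a UMIs, 792 with no thinning, 714 in NP137 libraries alone and 1016 in control libraries alone, and lay between 459 and 2291 with a library left out. The Epcam-Vim+ share of the Nr2f1 cells was 97.7% and 91.9% in control 1 and 2 at 1000 UMIs and 93.7% and 78.8% with no thinning. That of the Nr2f2 cells was 69.1% in NP137 1 at 1000 UMIs, and 88.0% and 79.5% in control 1 and 2 with no thinning. In neutrophils the mean levels of Nr2f1, Nr2f2 and Nr2f6 were 16.3, 21.9 and 18.4 CPM, without TMM factors, with no doublets removed. The causes were not tested. DESeq2 gave no adjusted p for Nr2f1 and Nr2f2 in macrophages or monocytes and in neutrophils.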
